A study of Hipposideros armiger and Mus musculus with 20 samples.

Results

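The nuclear genes of the mitochondrial respiratory chain and of ATP synthase were followed, complex by complex, in brown and white fat of mice and bats kept warm or cold. The members were all genes of the deposited expression table whose symbols begin with Nduf, Uqcr, Atp5 or Cox4 to Cox8, together with Sdha, Sdhb, Sdhc, Sdhd and cytochrome c (Cycs), and without Cox7a1. This rule took 63 of the 14871 genes in the table. All 63 had an FPKM (fragments scaled by transcript length and by library size) of at least 1 in at least 2 mouse libraries, as did 10689 mouse genes in all. In the bat 62 of the 63 did, among 11025 genes, and the exception was Ndufa13, an accessory subunit of complex I. Subunits without an entry in the table were not analysed here.

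The respiratory chain passes electrons from NADH through complex I, or from succinate through complex II, by way of complex III and cytochrome c to complex IV, which reduces oxygen. Complexes I, III and IV pump protons across the inner mitochondrial membrane, and ATP synthase lets them flow back to make ATP. Brown fat carries a large respiratory chain together with little ATP synthase, and its uncoupling protein Ucp1 lets the protons return without ATP, which gives heat. White fat exposed to cold can gain fat cells of this kind.

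The mouse groups were ICR mice kept for 1 week at 10 °C or at 30 °C, with brown fat from between the shoulder blades (iBAT) and white fat from under the skin (sWAT) taken from each condition. The bat groups were wild type great roundleaf bats (Hipposideros armiger) kept for 1 week at 10 °C or at 30 °C, with iBAT, sWAT and abdominal white fat (aWAT) taken from each. Every group held 1 female and 1 male library, given in that order below, which makes 20 libraries in 10 groups. The 10 °C groups are called cold and the 30 °C groups warm. For age the sources used here give nothing. The labels do not state that the libraries of a group, or the depots of a condition, came from separate animals, so p-values measure only the spread between these samples.

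The summed FPKM of a library was 263338 to 305098 in mouse and 294103 to 358510 in bat, and absolute read depth was unknown. Ucp1 followed the depot and temperature labels, though in bat sWAT it stayed at 1.202 FPKM or less. It was 3688 and 5119 FPKM in cold and 192 and 49.9 FPKM in warm mouse iBAT, 1229 and 2977 FPKM in cold and 1.19 and 1.53 FPKM in warm mouse sWAT, 10400 and 7239 FPKM in cold and 2886 and 2670 FPKM in warm bat iBAT, and 7184 and 2939 FPKM in cold and 3.18 and 2.67 FPKM in warm bat aWAT. In bat sWAT it was 0.826 and 1.202 FPKM in the cold and 0.410 and 0.570 FPKM in the warm. The bat table uses mouse gene identifiers, so a low listing in the bat does not show low expression, and bat levels were not set against mouse levels. Changes are differences of log2(FPKM + 1), less the median difference over all genes tested, given ± the standard error of the limma fit over 2 libraries per group. For cold against warm that median was −0.297 in mouse iBAT, −0.366 in mouse sWAT, −0.101 in bat iBAT, 0.0696 in bat sWAT and −0.136 in bat aWAT, and for iBAT against sWAT it was −0.573 in warm and −0.466 in cold mice. A gene was called at an adjusted p under 0.05, from the difference without that shift.

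Taken as a share of all FPKM in a library, the members were higher in brown than in white fat of the same species and temperature and, in 2 of the 3 white depots, higher in cold than in warm libraries. The share was 8.51% and 8.43% in cold and 8.62% and 8.46% in warm mouse iBAT. In mouse sWAT it was 4.85% and 6.56% in the cold against 1.87% and 2.32% in the warm. In the bat the share was 8.91% and 9.49% in cold and 6.59% and 6.69% in warm iBAT. It was 7.72% and 5.60% in cold and 2.21% and 2.97% in warm bat aWAT, with no overlap. Bat sWAT held 2.14% and 2.04% in the cold and 2.00% and 2.18% in the warm, and there the libraries of both temperatures were intermixed. In whole tissue, fewer cells of a type and less RNA per cell cannot be told apart.

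**Figure D1:**
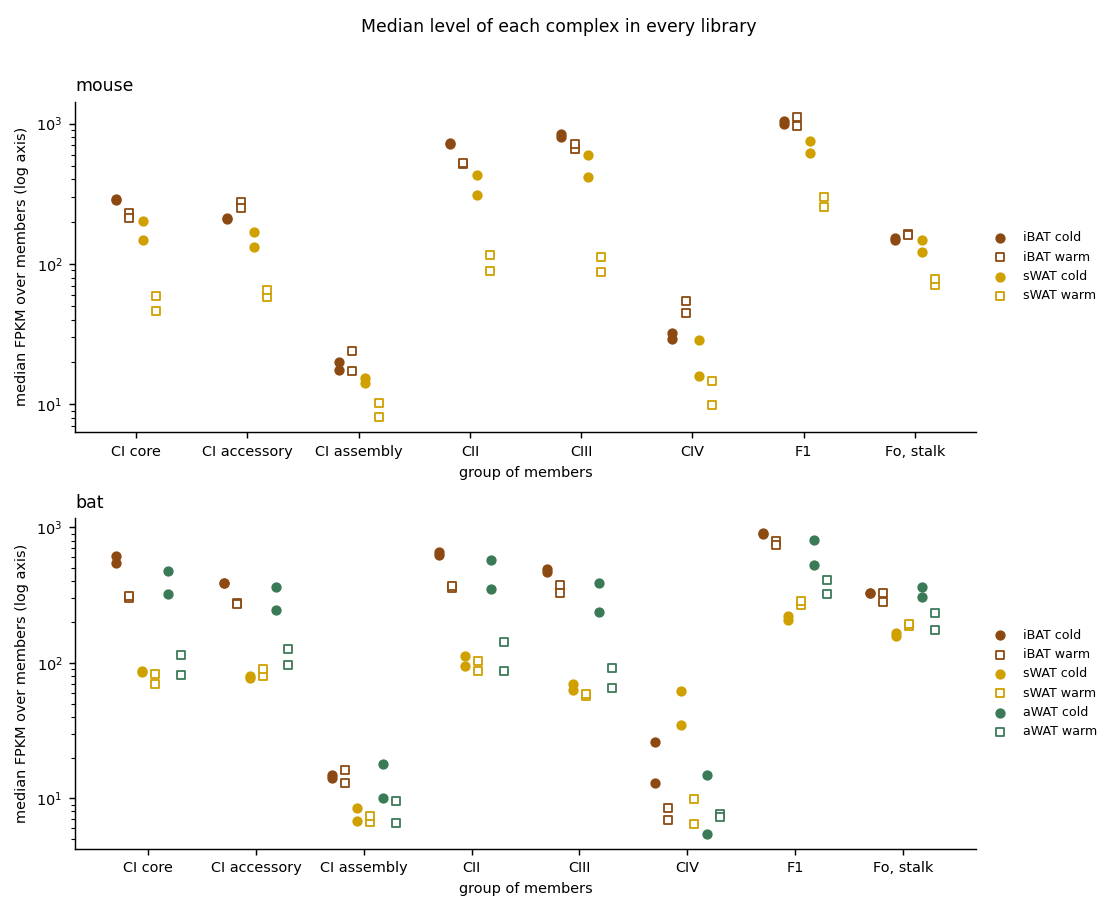
Median FPKM of the members of each complex (vertical axis, logarithmic) in each of the 20 libraries, grouped by species, depot and temperature; filled circles are cold, open squares warm, and colours mark depots. Complexes I, II and III stand higher in the cold libraries of mouse sWAT and bat aWAT than in the warm ones; the median of complex IV in the bat is set by members listed at low values.

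The 5 depots gave very different counts of members that changed in the cold. In mouse sWAT, 50 of 63 members rose and none fell at an adjusted p under 0.05 in limma, against 7.06% of all genes called higher and 26.8% called lower, and the members' median change was 1.68. There 1 member was lower at an unadjusted p under 0.05, against 39.1% of all genes. In bat aWAT, 40 of 62 rose and 1 fell, against 8.66% of all genes called higher and 6.67% called lower, with a median of 1.46. Both cold libraries lay above both warm ones for 56 members in mouse sWAT, against 15.5% of all genes, and for 50 members in bat aWAT, against 23.6%.

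The brown depots and bat sWAT differed from this. In mouse iBAT 1 member rose and 3 fell, against 2.84% of all genes called higher and 11.2% called lower, and the median change was 0.27, which turned to −0.067 with quantile normalization. At an unadjusted p under 0.05, 7 members were higher and 10 lower there, against 5.91% and 27.7% of all genes. With median-ratio scaling of the libraries the split in mouse iBAT was 3 higher and 1 lower. In bat iBAT no member was called by limma, where 1.22% of all genes were called higher and 0.98% lower. There 29 members were higher and 1 lower at an unadjusted p under 0.05, against 8.34% and 11.2% of all genes, with a median change of 0.61. In bat sWAT 1 of 62 members rose, against 0.943% of all genes, none fell, against 0.0726%, and the median was −0.11, which turned to 0.00514 with quantile normalization. At an unadjusted p under 0.05 there 1 was higher and 2 were lower, against 7.87% and 2.67% of all genes.

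**Figure D2:**
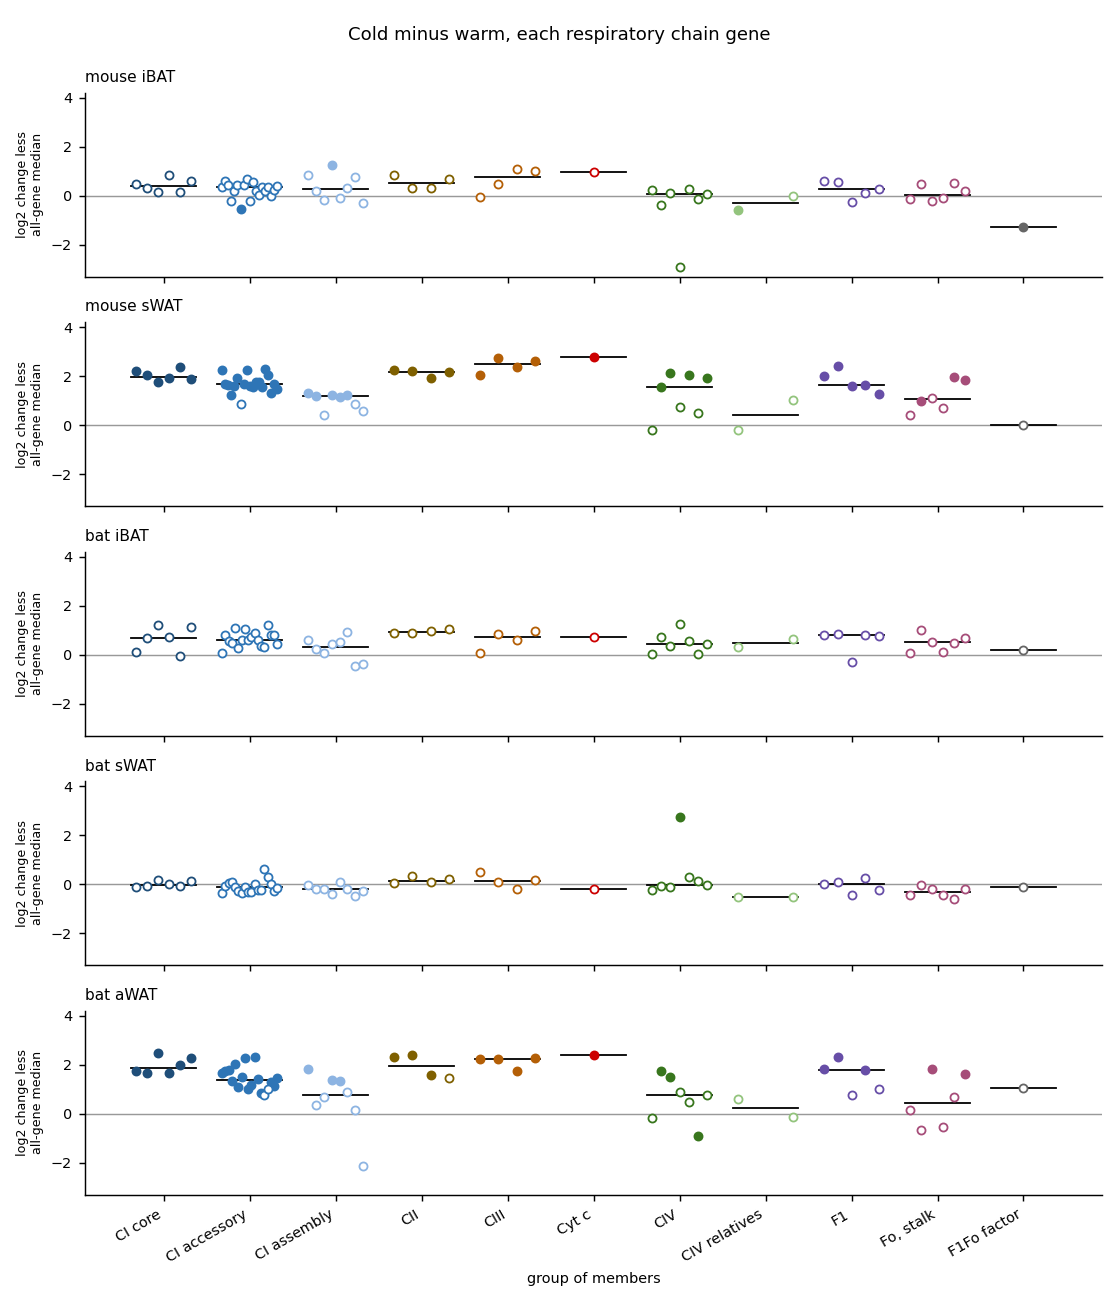
Cold minus warm change of each member (points), as log2 difference less the all-gene median, by complex and for each depot; filled points were called at an adjusted p under 0.05 in limma, open points were not, black bars are medians and the grey line at 0 is the median of all genes. In mouse sWAT 50 of 63 points and in bat aWAT 41 of 62 are filled, while bat iBAT has no filled point.

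Marker genes of cells other than fat cells differed between the same libraries. In mouse sWAT the summed FPKM of 6 B cell genes was 31.5 to 1237 in the cold and 2356 to 12110 in the warm, and that of 5 T cell genes was 1.38 to 69.8 in the cold and 215 to 223 in the warm. The 12 skeletal muscle genes summed to 30.6 to 2124 FPKM in cold and 16.5 to 41.8 FPKM in warm mouse sWAT. The 8 brown fat genes summed to 1901 to 3740 FPKM in cold and 40.5 to 110 FPKM in warm mouse sWAT, and to 5016 to 8982 FPKM in cold and 474 to 966 FPKM in warm bat aWAT. In bat aWAT the muscle genes summed to 18.0 to 24.1 FPKM in the cold and 6.53 to 7.85 FPKM in the warm. Of these sums, Myl1 alone was 21.35 and 15.25 FPKM in the cold and 3.775 and 4.206 FPKM in the warm. The 4 endothelial genes summed to 64.6 to 102 FPKM in cold and 136 to 156 FPKM in warm bat aWAT. In mouse sWAT the 5 macrophage genes summed to 84.4 to 122 FPKM in the cold and 134.5 to 226 FPKM in the warm. The part of these cells in the members' changes was not tested.

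The count in mouse sWAT, like that of all genes, also depended on the libraries in the fit. Without the female warm library 10 members were higher, with 117 of all genes higher and 8 lower, against 755 and 2867 with it. With only the 4 sWAT libraries in the fit no gene of the table was called.

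Complex I, the NADH dehydrogenase, gave the most members. Its 6 core subunits in the table carry the iron-sulfur and flavin groups or line the quinone site, as in bacteria, and all 6 rose in the cold in mouse sWAT (median 1.97) and in bat aWAT (median 1.86). Ndufv1, which binds NADH, was 188 and 263 FPKM in cold and 42.4 and 69.1 FPKM in warm mouse sWAT (2.38 ± 0.30, adjusted p = 0.0122 in limma). Both cold libraries stood well above both warm ones. In bat aWAT Ndufv1 was 479 and 351 FPKM in the cold and 104 and 122 FPKM in the warm (1.99 ± 0.21, adjusted p = 0.000742 in limma).

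Within the core the bat iBAT libraries split the members. Ndufs3, a subunit of the arm that leads electrons to quinone, was 716 and 678 FPKM in cold and 310 and 329 FPKM in warm bat iBAT (1.22 ± 0.28, adjusted p = 0.0693 in limma). Ndufv2, the partner of Ndufv1, was 591 and 609 FPKM in the cold and 296 and 292 FPKM in the warm there (1.13 ± 0.28, adjusted p = 0.0886). Ndufv1 was 494 and 631 FPKM in the cold and 651 and 606 FPKM in the warm in the same libraries (−0.07 ± 0.21, adjusted p = 0.691). The cold and warm libraries did not overlap for Ndufs3 and Ndufv2 and did for Ndufv1. Ndufs1, the largest core subunit, was 191 and 241 FPKM in cold and 203 and 224 FPKM in warm bat iBAT, also with overlap.

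In bat aWAT Ndufs3 had the largest rise of the core, with 603 and 377 FPKM in the cold and 70.0 and 120 FPKM in the warm (2.50 ± 0.28, adjusted p = 0.000877 in limma). In bat sWAT the core subunits stayed near the all-gene median, between −0.11 for Ndufs1 and 0.17 for Ndufs3. In mouse iBAT their changes ran from 0.13 for Ndufv1 to 0.86 for Ndufs8, with none called. There 1 of the 6 was higher at an unadjusted p under 0.05, against 5.91% of all genes.

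The accessory subunits surround the core and are needed for assembly and stability. In mouse sWAT 18 of 19 rose (median 1.68), from 1.24 for Ndufa13 to 2.29 for Ndufb8, and the exception was Ndufa7 (0.86 ± 0.19, adjusted p = 0.0831 in limma). Ndufa7 was called with median-ratio scaling (adjusted p = 0.0331), and Ndufv3 was not with quantile normalization (adjusted p = 0.0675). In bat aWAT 16 of 18 rose (median 1.40), and the other 2, Ndufb8 and Ndufc1, were listed below 11 FPKM in every bat library. With quantile normalization Ndufb10 and Ndufb7 were not called there (adjusted p of 0.0714 and 0.196 in limma). Ndufb7 was also not called after rescaling without the 10 highest genes (adjusted p = 0.0594). The largest of the bat aWAT rises was that of Ndufb3, with 993 and 508 FPKM in the cold and 115 and 206 FPKM in the warm (2.34 ± 0.36, adjusted p = 0.00369 in limma). Ndufa9, which binds a nucleotide beside the quinone arm, was 548 and 391 FPKM in cold and 76.4 and 137 FPKM in warm bat aWAT (2.30 ± 0.28, adjusted p = 0.00139). No accessory subunit was called in bat iBAT or bat sWAT in limma. In bat iBAT 7 of 18 were higher at an unadjusted p under 0.05, against 8.34% of all genes. In bat sWAT none was, against 7.87%.

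In mouse iBAT 1 of the 19 accessory subunits was higher and 3 lower at an unadjusted p under 0.05. Of all genes 5.91% were higher and 27.7% lower. Ndufa7 was the accessory subunit called lower there. It was 166 and 146 FPKM in cold and 288 and 277 FPKM in warm mouse iBAT (−0.56 ± 0.19, adjusted p = 0.0341 in limma), so both cold libraries lay clearly below. With median-ratio scaling its adjusted p was 0.22, and with quantile normalization 0.104. Ndufb10 (330 and 325 FPKM in cold, 457 and 473 FPKM in warm) and Ndufa13 (143 and 131 FPKM in cold, 204 and 188 FPKM in warm) were also lower in both cold libraries of mouse iBAT, with adjusted p of 0.114 and 0.0712. In bat iBAT Ndufa7 was 244 and 274 FPKM in the cold and 224 and 232 FPKM in the warm.

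The 8 assembly factors, which help to build complex I and are not part of it, had smaller median changes than the subunits. Their median change was 1.17 in mouse sWAT, where 5 rose, and 0.79 in bat aWAT, where Ndufaf1, Ndufaf4 and Ndufaf5 rose. Ndufaf4 was the 1 member that rose in mouse iBAT. It was 20.9 and 18.7 FPKM in cold and 9.15 and 10.0 FPKM in warm mouse iBAT (1.27 ± 0.16, adjusted p = 0.0188 in limma), with both cold libraries well above both warm ones. It also rose in mouse sWAT, with 11.1 and 14.7 FPKM in the cold and 6.71 and 6.61 FPKM in the warm (1.21 ± 0.16, adjusted p = 0.0192). In bat aWAT Ndufaf4 was 55.4 and 57.4 FPKM in the cold and 22.5 and 23.4 FPKM in the warm (1.40 ± 0.16, adjusted p = 0.00128).

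Ndufaf7, which methylates a core subunit, was the assembly factor with the lowest change in bat iBAT, at 5.08 and 6.26 FPKM in the cold and 8.41 and 8.94 FPKM in the warm (−0.44 ± 0.21, adjusted p = 0.208 in limma). Ndufaf8 was listed at 16.9 FPKM in the female and at 0 in the male cold aWAT library of the bat, and at 17.4 and 21.7 FPKM in the warm ones.

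Complex II, succinate dehydrogenase, links the tricarboxylic acid cycle to the chain. All 4 of its genes rose in mouse sWAT (median 2.19), and Sdha, Sdhb and Sdhc rose in bat aWAT, where the median of the 4 was 1.95. Sdhb, the iron-sulfur subunit, was 372 and 560 FPKM in cold and 110 and 144 FPKM in warm mouse sWAT (2.22 ± 0.26, adjusted p = 0.0114 in limma). In bat aWAT it was 1220 and 710 FPKM in the cold and 154 and 242 FPKM in the warm (2.40 ± 0.30, adjusted p = 0.00151). The cold libraries of both depots were above the warm ones without overlap.

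Sdhd, a membrane anchor, was listed low in the bat, at 21.1 and 18.7 FPKM in cold and 4.28 and 12.0 FPKM in warm aWAT (1.47 ± 0.42, adjusted p = 0.0598 in limma). Complex II had the highest median of the multi-gene groups in bat iBAT, 0.94, with all 4 genes higher in both cold libraries. All 4 were also higher at an unadjusted p under 0.05, against 8.34% of all genes. Sdha, the flavin subunit, was 1019 and 1080 FPKM in cold and 596 and 602 FPKM in warm bat iBAT (0.91 ± 0.31, adjusted p = 0.191). In mouse iBAT Sdha was 845 and 825 FPKM in the cold and 532 and 618 FPKM in the warm (0.84 ± 0.26, adjusted p = 0.199).

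Complex III passes electrons from quinol to cytochrome c. Its 4 genes in the table, the core proteins Uqcrc1 and Uqcrc2, the Rieske iron-sulfur protein Uqcrfs1 and the small subunit Uqcr11, all rose in mouse sWAT and in bat aWAT. The median change, 2.50 in mouse sWAT and 2.25 in bat aWAT, was the largest of the multi-gene groups in both depots. Uqcrc1 was 444 and 629 FPKM in cold and 91.4 and 114 FPKM in warm mouse sWAT (2.72 ± 0.25, adjusted p = 0.00775 in limma). In bat aWAT it was 1145 and 788 FPKM in the cold and 174 and 273 FPKM in the warm (2.25 ± 0.27, adjusted p = 0.00121). In bat sWAT Uqcrc1 was 181 and 175 FPKM in the cold and 142 and 177 FPKM in the warm, and there both temperatures overlapped.

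In mouse iBAT the complex III genes differed among themselves. Uqcrc2 was 777 and 710 FPKM in the cold and 433 and 429 FPKM in the warm (1.08 ± 0.26, adjusted p = 0.0886 in limma), and Uqcrfs1 was 828 and 778 FPKM in the cold and 512 and 472 FPKM in the warm (1.00 ± 0.24, adjusted p = 0.0974). Uqcr11 was 850 and 814 FPKM in the cold and 1068 and 1081 FPKM in the warm (−0.07 ± 0.23, adjusted p = 0.313). Both cold libraries were thus above the warm ones for Uqcrc2 and Uqcrfs1 and below them for Uqcr11, and none was called. Uqcr11 was also the complex III gene with the smallest change in bat iBAT, at 408 and 355 FPKM in the cold and 456 and 336 FPKM in the warm.

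Cytochrome c carries electrons between complexes III and IV, and its gene Cycs had the largest rise of all members in mouse sWAT. It was 62.0 and 97.1 FPKM in the cold and 10.9 and 16.8 FPKM in the warm (2.80 ± 0.26, adjusted p = 0.00783 in limma). In bat aWAT Cycs was 168 and 97.4 FPKM in the cold and 19.1 and 34.5 FPKM in the warm (2.41 ± 0.33, adjusted p = 0.00225). Both of these rises were free of overlap. In mouse iBAT it was 119 and 130 FPKM in the cold and 78.4 and 78.4 FPKM in the warm (0.96 ± 0.26, adjusted p = 0.135). In bat iBAT it was 198 and 150 FPKM in the cold and 98.1 and 123 FPKM in the warm (0.74 ± 0.33, adjusted p = 0.306). Bat sWAT, with 25.1 and 21.2 FPKM in the cold and 21.7 and 29.5 FPKM in the warm, showed overlapping values.

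Complex IV, cytochrome c oxidase, had called members in both directions. Several of its nuclear subunits come in tissue forms. In mouse sWAT Cox5b, Cox6a1, Cox6b1 and Cox7b rose, 4 of 7. Cox6b1 was 1071 and 1397 FPKM in cold and 355 and 410 FPKM in warm mouse sWAT (2.04 ± 0.27, adjusted p = 0.0137 in limma). In bat aWAT Cox5b and Cox6a1 rose and Cox6b2 fell. Cox5b, a zinc-binding subunit, was 632 and 435 FPKM in cold and 132 and 217 FPKM in warm bat aWAT (1.76 ± 0.28, adjusted p = 0.00515). Cox6a1, the widely expressed form of subunit 6a, was 1163 and 798 FPKM in cold and 319 and 443 FPKM in warm bat aWAT (1.49 ± 0.25, adjusted p = 0.00639). Cox6b1 was listed at 10.5 FPKM or less in every bat library.

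In mouse iBAT no complex IV gene was called in limma, and the median change of the 7 was 0.08. None was higher and 2 were lower at an unadjusted p under 0.05, against 5.91% and 27.7% of all genes. Cox5b was 32.3 and 29.2 FPKM in cold and 54.5 and 44.5 FPKM in warm mouse iBAT (−0.37 ± 0.28, adjusted p = 0.149), with both cold libraries lower. Cox4i2, an oxygen-regulated form of subunit 4, was among the smallest changes in mouse sWAT, at 5.46 and 4.41 FPKM in the cold and 14.7 and 3.73 FPKM in the warm (−0.18 ± 0.50).

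Cox6a2 is the form of subunit 6a found in heart and skeletal muscle. It was the only member that rose in bat sWAT, at 34.8 and 61.6 FPKM in the cold and 6.46 and 5.10 FPKM in the warm (2.74 ± 0.45, adjusted p = 0.0131 in limma). The 12 muscle genes in those libraries summed to 461 to 998 FPKM in the cold and 7.49 to 19.1 FPKM in the warm, and Ckm, muscle creatine kinase, was 38.6 and 93.9 FPKM in the cold and 2.67 and 0 FPKM in the warm. In bat iBAT Cox6a2 was 12.9 and 26.1 FPKM in the cold and 6.97 and 8.55 FPKM in the warm. The muscle genes there summed to 17.3 to 17.8 FPKM in the cold and 3.31 to 5.15 FPKM in the warm. Of these sums, Myl1 alone was 15.71 and 15.24 FPKM in the cold and 3.55 and 1.676 FPKM in the warm. Ckm was listed at 0 in both cold libraries of bat iBAT. The part of muscle in the change in bat sWAT was not tested. Leaving out any 1 of the 4 bat sWAT libraries ended the call. As a share of Cox6a1 and Cox6a2 together, Cox6a2 was 11.1% and 18.0% in cold bat sWAT against 2.47% and 1.55% in warm bat sWAT, and 0.625% to 1.92% in bat iBAT and aWAT.

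In mouse iBAT Cox6a2 ran the other way, listed at 0 and at 10.5 FPKM in the cold and at 35.5 and 26.5 FPKM in the warm (−2.93 ± 1.20, adjusted p = 0.113 in limma). The muscle genes summed to 31.2 to 1115 FPKM in cold and 1789 to 2293 FPKM in warm mouse iBAT, and their part in it was not tested.

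**Figure D3:**
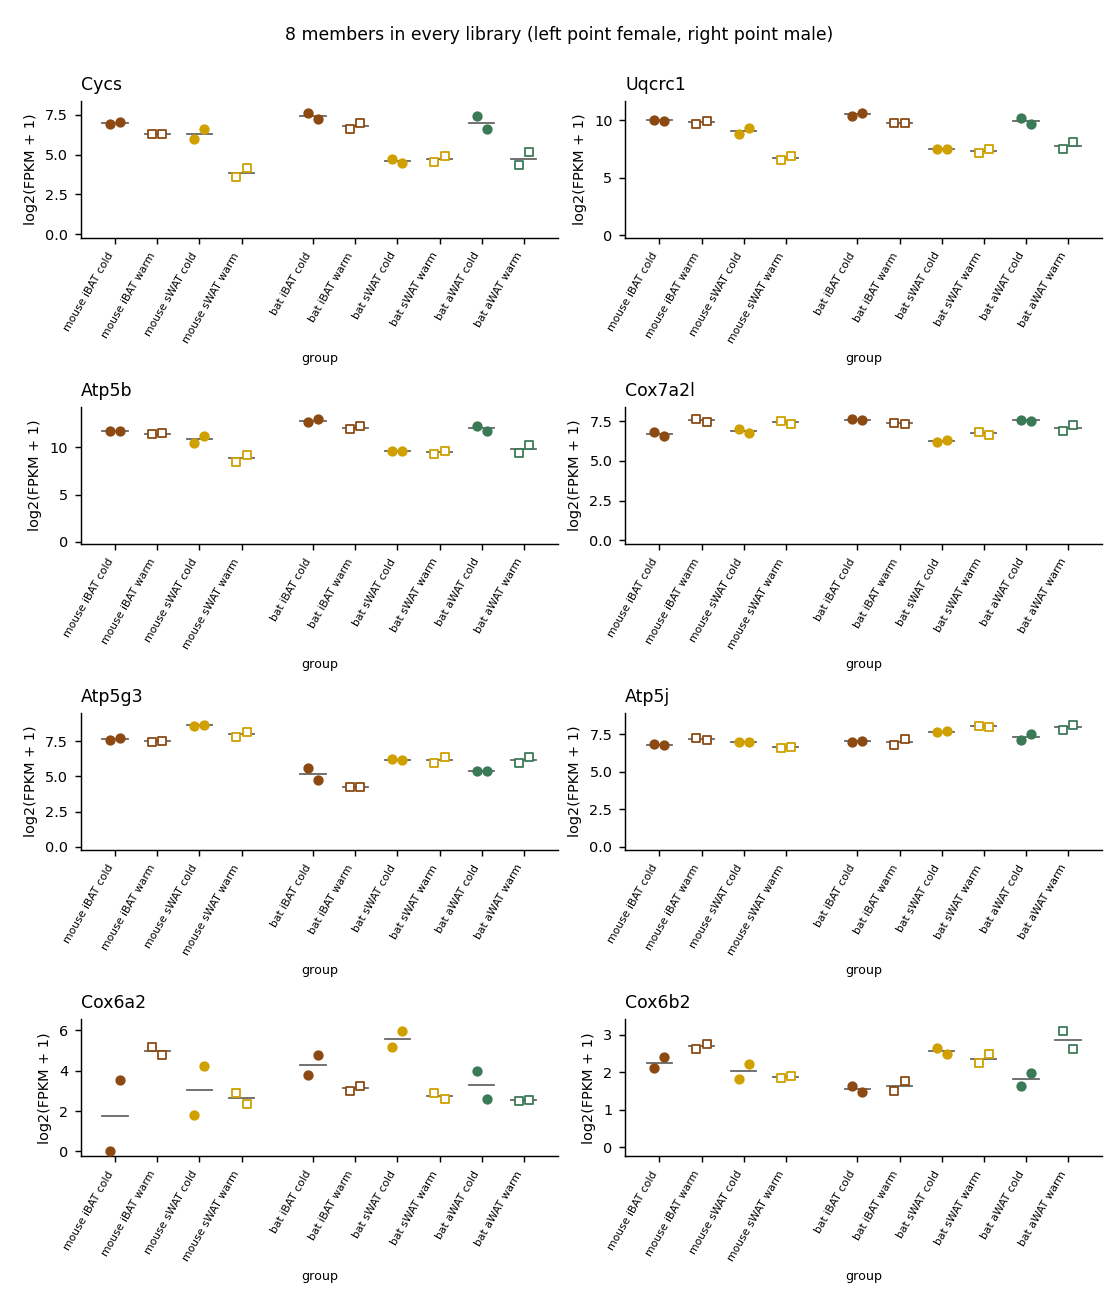
Values of 8 members as log2(FPKM + 1) in every library, one panel per gene; filled circles are cold, open squares warm, the left point of a pair is the female and the right one the male library, short lines are group means and colours mark depots. Cycs, Uqcrc1 and Atp5b share one pattern, high in iBAT and in cold mouse sWAT and bat aWAT, while Cox7a2l, Atp5g3, Atp5j, Cox6a2 and Cox6b2 each depart from it.

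Cox6b2, known as a testis form of subunit 6b, was the member that fell in bat aWAT. It was 2.12 and 2.94 FPKM in the cold and 7.61 and 5.11 FPKM in the warm (−0.91 ± 0.23, adjusted p = 0.0142 in limma), with no overlap. Leaving out the female warm or the female cold aWAT library ended the call, with adjusted p of 0.122 and 0.116. Its levels were low in every library, at most 7.61 FPKM.

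Of the relatives of complex IV genes, Cox7a2l, which helps complexes III and IV to join in supercomplexes, fell in mouse iBAT. It was 112 and 94.8 FPKM in the cold and 200 and 177 FPKM in the warm (−0.57 ± 0.18, adjusted p = 0.0294 in limma). With median-ratio scaling its adjusted p there was 0.108, and with quantile normalization 0.0624. Cox7a2l was also 130 and 106 FPKM in cold and 183 and 162 FPKM in warm mouse sWAT (−0.19 ± 0.18, adjusted p = 0.0538), where both cold libraries were lower while most members rose. With quantile normalization that adjusted p was 0.0169. In bat aWAT Cox7a2l was 190 and 183 FPKM in the cold and 118 and 152 FPKM in the warm (0.61 ± 0.17, adjusted p = 0.0889). Ndufa4l2, a relative of a complex IV subunit known to respond to low oxygen, was not called in any cold comparison in limma. It was 7.52 and 9.61 FPKM in cold and 4.59 and 5.47 FPKM in warm mouse sWAT (1.03 ± 0.24, adjusted p = 0.0682), and was called there with median-ratio scaling (adjusted p = 0.0424) and quantile normalization (adjusted p = 0.0297).

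ATP synthase has a catalytic head, F1, and a membrane and stalk part, Fo. The 5 F1 genes all rose in mouse sWAT (median 1.64), Atp5e not with quantile normalization (adjusted p = 0.128 in limma), and in bat aWAT Atp5a1, Atp5b and Atp5d rose (median of the 5, 1.8). Atp5b, the catalytic beta subunit, was the most abundant member by FPKM in both brown depots, up to 3366 FPKM in cold mouse iBAT and 8166 FPKM in cold bat iBAT. It was 1448 and 2419 FPKM in cold and 354 and 569 FPKM in warm mouse sWAT (2.42 ± 0.40, adjusted p = 0.0189 in limma). In bat aWAT it was 4999 and 3450 FPKM in the cold and 690 and 1193 FPKM in the warm (2.33 ± 0.33, adjusted p = 0.00258). Atp5c1, the gamma subunit of the rotating shaft, was the F1 gene with the smallest change in bat iBAT, at 626 and 532 FPKM in the cold and 792 and 747 FPKM in the warm (−0.31 ± 0.20, adjusted p = 0.276).

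The Fo and stalk genes had smaller medians, 1.06 in mouse sWAT and 0.43 in bat aWAT. Atp5g3, Atp5k and Atp5o rose in mouse sWAT, Atp5g3 not with quantile normalization (adjusted p = 0.245 in limma), and Atp5h and Atp5o rose in bat aWAT. Atp5o, the subunit that ties the stalk to the head, was 1034 and 799 FPKM in cold and 287 and 368 FPKM in warm bat aWAT (1.62 ± 0.22, adjusted p = 0.00289 in limma). Atp5j, coupling factor 6, was 137 and 181 FPKM in the cold and 224 and 280 FPKM in the warm there (−0.53 ± 0.20, adjusted p = 0.0544). Atp5g3, a gene for the c ring subunit, was 40.6 and 40.2 FPKM in the cold and 60.03 and 81.2 FPKM in the warm (−0.64 ± 0.26, adjusted p = 0.0707). Both of these were lower in each cold library while Atp5o was higher in each. With quantile normalization both falls were called, at adjusted p of 0.00937 for Atp5j and 0.0236 for Atp5g3 in limma.

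Atp5g2 and Atp5g3 encode the same mature c subunit with different import signals, and reads may be shared between such close copies, so their split is uncertain. Atp5g1, another c subunit gene, had no entry, so the shares are of this pair only. In the mouse Atp5g3 made up 88.4% to 96.3% of the FPKM of the pair. In the bat Atp5g3 made up 8.11% and 4.71% in cold and 3.78% and 2.84% in warm iBAT, 19.9% and 22.3% in cold and 13.2% and 21.1% in warm sWAT, and 6.46% and 7.10% in cold and 8.76% and 14.6% in warm aWAT. The share was higher in both cold libraries of bat iBAT and lower in both of bat aWAT than in the warm ones, in values with no test. Atp5g2 itself was 525 and 527 FPKM in cold and 463 and 617 FPKM in warm bat iBAT.

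Atp5s, known as coupling factor B, was the member with the strongest fall in mouse iBAT, at 4.00 and 3.90 FPKM in the cold and 16.3 and 11.2 FPKM in the warm (−1.26 ± 0.19, adjusted p = 0.00949 in limma). Its fall and the rise of Ndufaf4 were called under every scaling of the libraries tried, whereas none of the 4 calls in mouse iBAT was made with any 1 of the 4 iBAT libraries left out. In mouse sWAT Atp5s was 5.10 and 5.70 FPKM in the cold and 6.68 and 7.59 FPKM in the warm, with a change of 0.02 ± 0.19. In bat aWAT it was 35.4 and 18.2 FPKM in the cold and 11.2 and 14.7 FPKM in the warm (1.07 ± 0.28, adjusted p = 0.0506).

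The cold changes of mouse sWAT and bat aWAT were also set beside each other by group of genes. Cycs and complex III had the largest changes, 2.80 and 2.50 in mouse sWAT and 2.41 and 2.25 in bat aWAT, followed by complex II with 2.19 and 1.95. The Fo and stalk group and the complex I assembly factors had lower medians, 1.06 and 1.17 in mouse sWAT and 0.43 and 0.79 in bat aWAT. The median of complex IV was 1.57 in mouse sWAT and 0.79 in bat aWAT, and that of its relatives 0.42 and 0.23. Of the complex IV genes, Cox4i2, Cox6a2, Cox6b1 and Cox6b2 were listed at 14.8 FPKM or less in bat aWAT. Among those listed higher there, Cox5b rose by 1.76 and Cox6a1 was also called higher. Cox7b, at 163 and 122 FPKM in cold and 76.8 and 105 FPKM in warm bat aWAT, was not called. These medians are descriptions of 1 to 19 genes each and carry no test.

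Brown fat was also compared with white fat of the same temperature. In warm mice 56 of 63 members were higher in iBAT than in sWAT and none was lower, against 10.7% and 48% of all genes, with a median difference of 2.47. In the warm 1 was lower at an unadjusted p under 0.05, against 52.4% of all genes. In cold mice 15 were higher and 1 was lower, against 2.32% and 27.6% of all genes, with a median of 0.91. The count in cold mice moved most with the processing, to 43 higher and none lower with median-ratio scaling, to none when either iBAT library was left out, to 2, both lower, without the female sWAT library, and to 35 higher and 1 lower without the male one. With the shared letters of the library titles as a replicate block it was 24 higher and 1 lower, with 411 of all genes higher and 4208 lower. Uqcrc1 was 814 and 965 FPKM in warm iBAT and 91.4 and 114 FPKM in warm sWAT of mice (3.68 ± 0.25, adjusted p = 0.00106 in limma), which was the largest difference there. The 6 B cell genes summed to 16.0 to 192 FPKM in warm iBAT and 2356 to 12110 FPKM in warm sWAT of mice. The 12 skeletal muscle genes summed to 1789 to 2293 FPKM in warm iBAT and 16.5 to 41.8 FPKM in warm sWAT. The part of either cell type in these differences was not tested.

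The c subunit gene Atp5g3 was the member called lower in cold mouse iBAT than in sWAT. It was 191 and 212 FPKM in cold iBAT and 385 and 401 FPKM in cold sWAT (−0.50 ± 0.18, adjusted p = 0.0135 in limma), lower in both iBAT libraries. In the warm it was 175 and 183 FPKM in iBAT and 225 and 281 FPKM in sWAT (0.09 ± 0.18, adjusted p = 0.0513). Beside it, the OSCP gene Atp5o was 215 and 206 FPKM in warm iBAT and 47.1 and 53.7 FPKM in warm sWAT, in the opposite direction. With median-ratio scaling no member was lower in cold mouse iBAT.

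In the bat 48 of 62 members were higher and 4 lower in warm iBAT than in warm sWAT, against 11% and 13% of all genes, with a median of 1.54. Against warm aWAT 41 were higher and 4 lower, against 7.66% and 12.6% of all genes, with a median of 1.28. In the cold 53 were higher and 4 lower in iBAT than in sWAT, against 13.2% and 26.8% of all genes, with a median of 2.23. Cold iBAT and cold aWAT did not differ in any member in limma, where 0.172% of all genes were higher and 0.644% lower. At an unadjusted p under 0.05, 12 members were higher and none lower there, against 2.48% and 9.69% of all genes. The median was 0.54, and it was 0.206 without the male cold aWAT library. Atp5b was 6442 and 8166 FPKM in cold iBAT, 789 and 790 FPKM in cold sWAT and 4999 and 3450 FPKM in cold aWAT of bats.

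**Figure D4:**
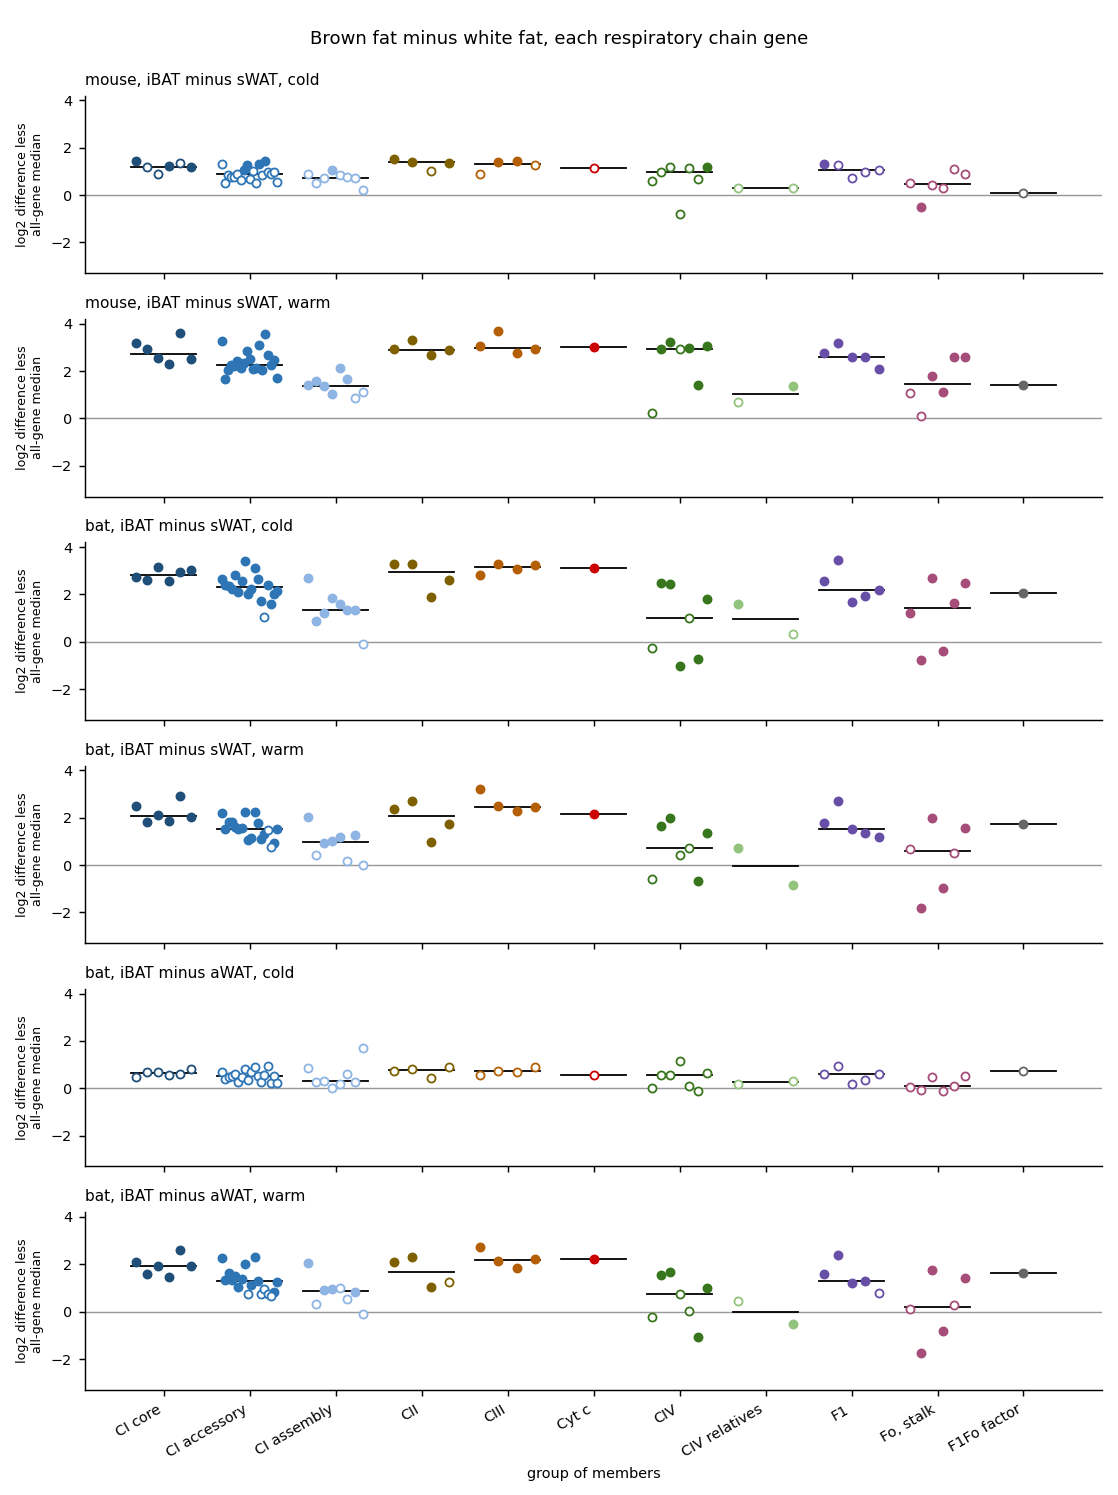
Brown minus white fat difference of each member (points), as log2 difference less the all-gene median, by complex, for each white depot and temperature; filled points were called at an adjusted p under 0.05 in limma, open points were not, black bars are medians and the grey line at 0 is the median of all genes. Called members stand above 0 in nearly every group, the called points below 0 are in complex IV, its relatives and the Fo and stalk group, and bat iBAT minus aWAT in the cold has no filled point.

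Atp5g3, Atp5j and Cox6b2 were lower in bat iBAT in the 3 comparisons that called members. Atp5g3 was 18.2 and 18.0 FPKM in warm iBAT, 61.2 and 80.4 FPKM in warm sWAT and 60.03 and 81.2 FPKM in warm aWAT, so iBAT was far below both. The difference was −1.83 ± 0.26 from sWAT (adjusted p = 0.000739 in limma) and −1.74 ± 0.26 from aWAT (adjusted p = 0.00116). Atp5j was 111 and 146 FPKM in warm iBAT and 268 and 259 FPKM in warm sWAT of bats (−0.98 ± 0.20, adjusted p = 0.00495). Against cold sWAT the differences were −0.78 ± 0.26 for Atp5g3 and −0.40 ± 0.20 for Atp5j, and with median-ratio scaling neither was called, with adjusted p of 0.0741 and 0.22. Cox6b2 was not called against warm sWAT with quantile normalization (adjusted p = 0.0598 in limma) or with any 1 of the 4 libraries left out. These comparisons share the iBAT libraries of each temperature.

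The fourth lower member was Ndufa4l2 in the warm and Cox6a2 in the cold. Ndufa4l2 was 7.33 and 7.53 FPKM in warm iBAT, 12.7 and 17.0 FPKM in warm sWAT and 13.0 and 11.8 FPKM in warm aWAT of bats. Its difference was −0.83 ± 0.19 from sWAT (adjusted p = 0.00718 in limma) and −0.52 ± 0.19 from aWAT (adjusted p = 0.0321). Cox6a2 was 12.9 and 26.1 FPKM in cold iBAT and 34.8 and 61.6 FPKM in cold sWAT of bats (−1.02 ± 0.45, adjusted p = 0.0446), where muscle genes summed to 17.3 to 17.8 FPKM in iBAT and 461 to 998 FPKM in sWAT. With median-ratio scaling neither the difference of Ndufa4l2 from aWAT (adjusted p = 0.0933) nor that of Cox6a2 (adjusted p = 0.139) was called in limma.

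Whether the depots differed in their response to cold was tested by the difference of 2 cold changes. In the bat the response in aWAT exceeded that in sWAT for 30 of 62 members and fell short for none, against 2.68% and 1.73% of all genes, with a median difference of 1.5. At an unadjusted p under 0.05 it fell short for 3, against 13.1% of all genes. All 6 core subunits of complex I, 11 of 18 accessory subunits, 3 of 4 complex III genes and 3 of 5 F1 genes were among the 30, and none of the 7 complex IV genes was. The differences of the complex IV genes ran from −1.86 for Cox6a2 to 1.82 for Cox5b. Of them, Cox4i2, Cox6b1 and Cox6b2 were listed at 10.5 FPKM or less in every bat library. For Cycs the difference was 2.59 ± 0.46 (adjusted p = 0.0222 in limma). This count was sensitive to single libraries. It was 10 and 11 without the female or male warm sWAT library, 2 and 0 without the female or male cold sWAT library, and 3 without the female warm or the female cold aWAT library.

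Between bat aWAT and bat iBAT the response differed for 1 member, against 0.336% of all genes called higher and none lower. This was Ndufv1, whose values in both depots are given above (2.04 ± 0.29, adjusted p = 0.0261 in limma). At an unadjusted p under 0.05 the response was larger in aWAT for 33 members and smaller for 4, against 6.45% and 3.73% of all genes. With median-ratio scaling the adjusted p of Ndufv1 was 0.0942, and with the shared title letters as a replicate block 9 members were higher and 1 lower. In mice the response in sWAT minus that in iBAT was not called for any member in limma, where 0.0561% of all genes were called higher and 0.0374% lower, with a median difference of 1.40. There 53 members were higher and none lower at an unadjusted p under 0.05, against 10.8% and 9.73% of all genes. With 1 library left out at a time, the median difference of the members in mice ran from 1.07 to 1.73. With the shared letters of the library titles as a replicate block 26 members were higher in mice. The counts of all genes with that block are not given here for either species, so its member counts have no background beside them.

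Assembly factors outside the symbol rule were counted from a separate list, of which 29 of 43 genes were tested. In mouse sWAT 15 of the 29 rose, against 7.06% of all genes, with the largest changes for Atpaf2, which chaperones the alpha subunit of F1 (1.94), and Foxred1, a complex I factor (1.94). In bat aWAT 14 rose, against 8.66% of all genes, among them Cox20, which chaperones a complex IV subunit (3.28), and Coa7 (1.67). In mouse iBAT 7 rose, against 2.84% of all genes, of which 5 were complex IV factors, Cox11, Cox16, Cox19, Cox20 and Coa3. Cox19 had the largest change in mouse iBAT, 1.61 (adjusted p = 0.0167 in limma), while no complex IV subunit rose there. In bat iBAT and bat sWAT none was called in limma, where 8 were higher in bat iBAT and none in bat sWAT at an unadjusted p under 0.05, against 8.34% and 7.87% of all genes. No listed factor fell in any cold comparison, and 1 in mouse iBAT and 3 in bat sWAT were lower at an unadjusted p under 0.05, against 27.7% and 2.67% of all genes.

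Genes that control transcription of respiratory genes were counted in the same way, 20 of 22 tested in mouse and 18 in bat. In bat aWAT 7 of 18 rose, against 8.66% of all genes, including the coactivator Ppargc1a (2.55, adjusted p = 0.0196 in limma), its relative Ppargc1b (1.5) and the nuclear receptor Esrra (1.76). Mterf3, also on this list, was 233.5 and 130.5 FPKM in cold and 24.39 and 50.08 FPKM in warm bat aWAT. In mouse sWAT Ppara (2.32), Esrra (1.71), Ppargc1b (1.65) and Lrpprc (1.12), which stabilises mitochondrial messages, rose. There Nrf1 (−0.64), Gabpb1 (−0.68) and Yy1 (−0.40) fell, 3 of 20 where 26.8% of all genes were called lower, and Ppargc1a changed by 1.35 with an adjusted p of 0.0824. In mouse iBAT Yy1 fell, 1 of 20 where 11.2% of all genes were called lower, and none rose. Of the 20, 2 were higher and 3 lower at an unadjusted p under 0.05, against 5.91% and 27.7% of all genes. In bat iBAT and bat sWAT none was called in limma. Of the 18, 2 and 1 were higher at an unadjusted p under 0.05, against 8.34% and 7.87% of all genes. None was lower in either depot, against 11.2% and 2.67%. Tfam, which packages and transcribes mitochondrial DNA, was not called in any of the 5 cold comparisons, between −0.49 in bat sWAT and 0.53 in bat aWAT.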

How the data were processed

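Expression was measured by RNA sequencing of 8 mouse and 12 bat adipose libraries. The authors deposited 1 table of FPKM for 14871 mouse gene identifiers in all 20 libraries. CASAVA 1.8 is listed, per the submitters' processing notes. Not given in the sources used here were genome build, aligner, counter and how bat reads got mouse identifiers. Depth is unknown, so no counting intervals were computed. Low values put relative depth at 0.9504 to 1.109 in mouse libraries. In the bat it was 0.6245 to 0.7387 in iBAT libraries and 0.9113 to 1.08 in sWAT and aWAT libraries. Depth thus differed along with depot in the bat, and its part in the differences of bat iBAT from white fat was not tested.

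Identifiers were paired with symbols through GENCODE M21, and 148 had none. Genes with an FPKM of at least 1 in 2 libraries of a species were kept. Values were taken as log2(FPKM + 1) and fitted with limma 3.58.1 in R 4.3.3 (trended prior), with all groups of a species in 1 fit. P-values are two-sided, adjusted by Benjamini and Hochberg over all genes. Fold changes on this scale understate changes of low genes. The fit was tested on simulated data. Marker lists of brown fat, muscle, B cells, T cells and other cells were summed in FPKM.

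Members, lists and tests were chosen with earlier results of these data known. Members named with values are a core list, the largest and smallest change of each complex in each comparison, and members called against most of their complex; not all were printed. Alternatives were 2 pseudocounts, 2 filters, 3 scalings, no trend, only the compared groups, 2 replicate blocks and each library left out.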

Additional observations from a re-analysis of the deposited data

Results flagged for a closer look

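The cold response of 30 members differed between bat aWAT and bat sWAT by a test of the difference itself in limma, and all 30 were larger in aWAT. Cycs was one of them, with a difference of 2.59 on the log2 scale less the all-gene median. The response of 1 member, Ndufv1, differed between bat aWAT and bat iBAT, by 2.04 on the same scale. The sexes and single libraries that bear on these values are given in the report.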

How the results depend on the processing

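With the 5 comparisons of cold and the 6 of depots, and the 3 differences of response, the number of members called moved by more than 1.5 times as follows. With only the compared groups in the fit it was 17 in mouse iBAT cold against warm (4 in the fit of all groups), 0 in mouse sWAT (50), 2 in mouse iBAT against sWAT in the cold (16), 2 in bat iBAT (0), 4 for the response of bat aWAT against sWAT (30) and 0 for bat aWAT against iBAT (1). With quantile normalization mouse iBAT had 2, and the median change of the members there reversed to −0.067. In mouse iBAT against sWAT in the cold it was 9 without a filter and 43 with median-ratio scaling, which gave 0 for the response of bat aWAT against iBAT. The cause of these moves was not tested.

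Libraries left out 1 at a time gave 0 to 0 members in mouse iBAT, 10 to 53 in mouse sWAT, 0 to 36 for mouse iBAT against sWAT in the cold, 0 to 47 for the mouse response, 0 to 0 in bat sWAT, 0 to 1 for bat iBAT against aWAT in the cold (1 without the female cold aWAT library), 0 to 38 for the response of bat aWAT against sWAT and 0 to 3 for bat aWAT against iBAT. That last count was 0 without the female warm aWAT library or any iBAT library, 2 without the male warm and 3 without the male cold aWAT library.

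With sex as a replicate block the response of bat aWAT against iBAT had 2 members called. Libraries sharing the species, temperature and sex letters of their titles correlated in their deviations at 0.369 to 0.406 in mouse and 0.26 to 0.547 in bat, but nothing states that they share an animal, and warm and cold mouse sWAT, which do not share these letters, correlated at 0.466. With these letters as a replicate block, counts were 25 for mouse iBAT against sWAT in the cold, 26 for the mouse response and 10 for bat aWAT against iBAT.

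The split of all genes called higher and lower shifted with median-ratio scaling to 687 and 381 in mouse iBAT (304 and 1202 as deposited), 1188 and 710 in mouse sWAT (755 and 2867), 2461 and 2290 for mouse iBAT against sWAT warm (1144 and 5126), 1344 and 1001 for the same cold (248 and 2946), 145 and 56 in bat iBAT (135 and 108), 1066 and 469 in bat aWAT (955 and 735), 1066 and 984 for bat iBAT against aWAT warm (844 and 1386) and 2064 and 1986 for bat iBAT against sWAT cold (1450 and 2950).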

Other observations

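Of the subunits encoded by mitochondrial DNA, mt-Nd2 of complex I and mt-Co2 of complex IV were measured, and the others were not analysed here. In mouse sWAT mt-Nd2 was 6168 and 8360 FPKM in the cold and 1457 and 2059 FPKM in the warm, and it rose by 2.42 (adjusted p = 0.0396 in limma). There mt-Co2 was 28830 and 37050 FPKM in the cold and 7874 and 11000 FPKM in the warm, a change of 2.18 with an adjusted p of 0.242 in limma. In the bat mt-Co2 was listed at 0.159 FPKM or less and mt-Nd2 at 8.39 FPKM or less in every library, and no change is given.

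The members Ndufb8, Ndufc1, Cox6b1, Ndufaf2, Ndufaf6, Ndufaf7, Cox4i2 and Cox6b2 were tested in the bat although they were listed below 11 FPKM in every bat library. Of these, Cox6b2 was called in a cold comparison of the bat in limma, in its fall in aWAT.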
